A study of Mus musculus with 6 samples.

Results

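The genes described here are 9 regulators of alternative splicing with known roles in neurons, Srrm3, Srrm4, Ptbp2, Rbfox1, Rbfox2, Rbfox3, Nova1, Khdrbs2 and Khdrbs3, together with Ptbp1, their counterpart in cells that are not neurons. Every probe set annotated to exactly 1 of these 10 genes was taken, which gave 26 of the 45101 probe sets on the array, and 0 were shared with another gene. The genes were chosen by their function with the difference between REST shRNA and control shRNA arrays already known. That difference is therefore given below as a description, and nothing is read from tests on it. The series holds 6 Affymetrix arrays of RNA from NSP cells (a usual short form for neural stem and progenitor cells) grown from brains of E12.5 mouse embryos, with no genotype or strain named. All cells were plated, grown to confluence, split and exposed overnight to a lentivirus carrying a short hairpin RNA (shRNA), and RNA was taken on day 6. In 3 arrays the hairpin was a control (CTL) and in 3 it was directed against REST. The number of arrays limits the precision of every value. Whether the samples of a group were separate cultures is not stated, so the spread between them may be technical, and the cultures were not sorted, so fewer cells of a type and less RNA per cell cannot be told apart.

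The repressor REST recognises the RE1 element in DNA with its zinc fingers and keeps neuronal genes low in cells that are not neurons. Among its known targets is Srrm4, also called nSR100, a serine and arginine rich protein that promotes the inclusion of very short exons in neuronal transcripts and of an exon in the REST transcript itself, and Srrm3 is a related protein with overlapping targets. Ptbp1 represses neuronal exons in progenitors and other dividing cells, among them an exon that Ptbp2 needs for a stable transcript. A neuronal microRNA, miR-124, lowers Ptbp1, and Ptbp2 takes over in young neurons. The Rbfox proteins bind the letters GCAUG in introns, and Rbfox3 is the antigen NeuN of mature neurons. Nova1 binds clusters of UCAU, and Khdrbs2 and Khdrbs3 belong to the family of Sam68 and act on neurexin exons. A probe set is a group of short probes that together give 1 signal for a transcript. These signals report transcript amount and not which exons are included, so splicing itself was not measured.

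The knockdown was visible in the targeted transcript. All 4 probe sets of Rest read lower in the 3 REST shRNA arrays than in every control array, at 57.3% to 71.5% of the control level. The brightest, 1428227_at, had log2 signals of 8.92, 8.75 and 8.90 in control arrays 1, 2 and 3 and of 8.63, 7.70 and 8.20 in REST shRNA arrays 1, 2 and 3. REST shRNA array 1 was thus the nearest to control on this probe set. Without REST shRNA array 2 the log2 difference of 1428227_at was -0.44 (limma interval -0.91 to 0.03). That of 1425566_at was then -0.38 (-0.83 to 0.07), so both intervals held either sign. The intervals of 1425565_at, at -0.46 (-0.91 to -0.01), and of 1425564_at, at -0.82 (-1.26 to -0.37), stayed negative. With all arrays the log2 difference of 1428227_at was -0.68 ± 0.25 (limma SE), with an adjusted p of 1.00 over all probe sets. Unadjusted limma p-values of the 4 probe sets ran from 0.00175 to 0.0322, and for each the exact two-sided permutation p was 0.1, the smallest that 3 against 3 arrays can give.

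The label was checked against cell type markers, and 1 array stood apart. Of 18 neural progenitor markers all 18 lay above the highest bacterial control probe set, which read 3.24 and serves as the background reference. So did 19 of 20 neuron markers (all but Slc17a6), 15 of 15 astrocyte markers and 13 of 14 oligodendrocyte markers (all but Mog), so markers of all 4 neural classes were measured above background. Only 5 of 10 microglial, 5 of 10 endothelial and mural and 5 of 9 fibroblast markers did, with the microglial Tmem119 and P2ry12 and the endothelial Cldn5, Cdh5 and Pecam1 at or below it. The summed signal of the neuron markers on the linear scale ranged from 7769 to 9500 in control and from 8001 to 12741 in REST shRNA arrays, and that of the progenitor markers from 32232 to 33332 and from 27385 to 31069. REST shRNA array 2 had an astrocyte sum of 9876, against 21456 to 25752 in the other arrays. Its correlations with the other arrays, at 0.955 to 0.977, reached less high than those of any other array. Those of REST shRNA array 3 were close, at 0.955 to 0.980, so the astrocyte sum sets array 2 apart more than the correlations do. Results that rest on REST shRNA array 2 are therefore also given without it. Control array 3 had the largest gap between the 3' and 5' probe sets of Gapdh, a sign of RNA quality, at 2.87 log2 units against 1.72 to 2.25 on the other 5 arrays. The part of cell composition in the differences below was not tested.

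Across the 10 genes most probe sets read higher with REST shRNA. Of the 26 probe sets 23 had a positive log2 difference (REST shRNA minus control shRNA), where 52.6% of all probe sets did, with a median of 0.33 against 0.01. In 8 probe sets every REST shRNA array lay above every control array, against 4.35% of all probe sets, and in 1 every REST shRNA array lay below, against 3.89%. These 8 were 2 of 3 probe sets of Srrm3, 2 of 3 of Srrm4, all 3 of Rbfox3 and 1 of 4 of Rbfox2, and the 1 was a probe set of Nova1. None of the 26 was called by limma at an adjusted p under 0.05, and neither was any other probe set of the array (0% in each direction). At an unadjusted p under 0.05 limma gave 8 of the 26 higher, with a background of 1.53%, and 1 lower, with a background of 1.93%. Since the contrast was known when the genes were chosen, nothing is read from these counts. By brightness, 24 of the 26 had a mean signal above the highest bacterial control, and the other 2 belonged to Srrm3 and Rbfox1.

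**Figure D1:**
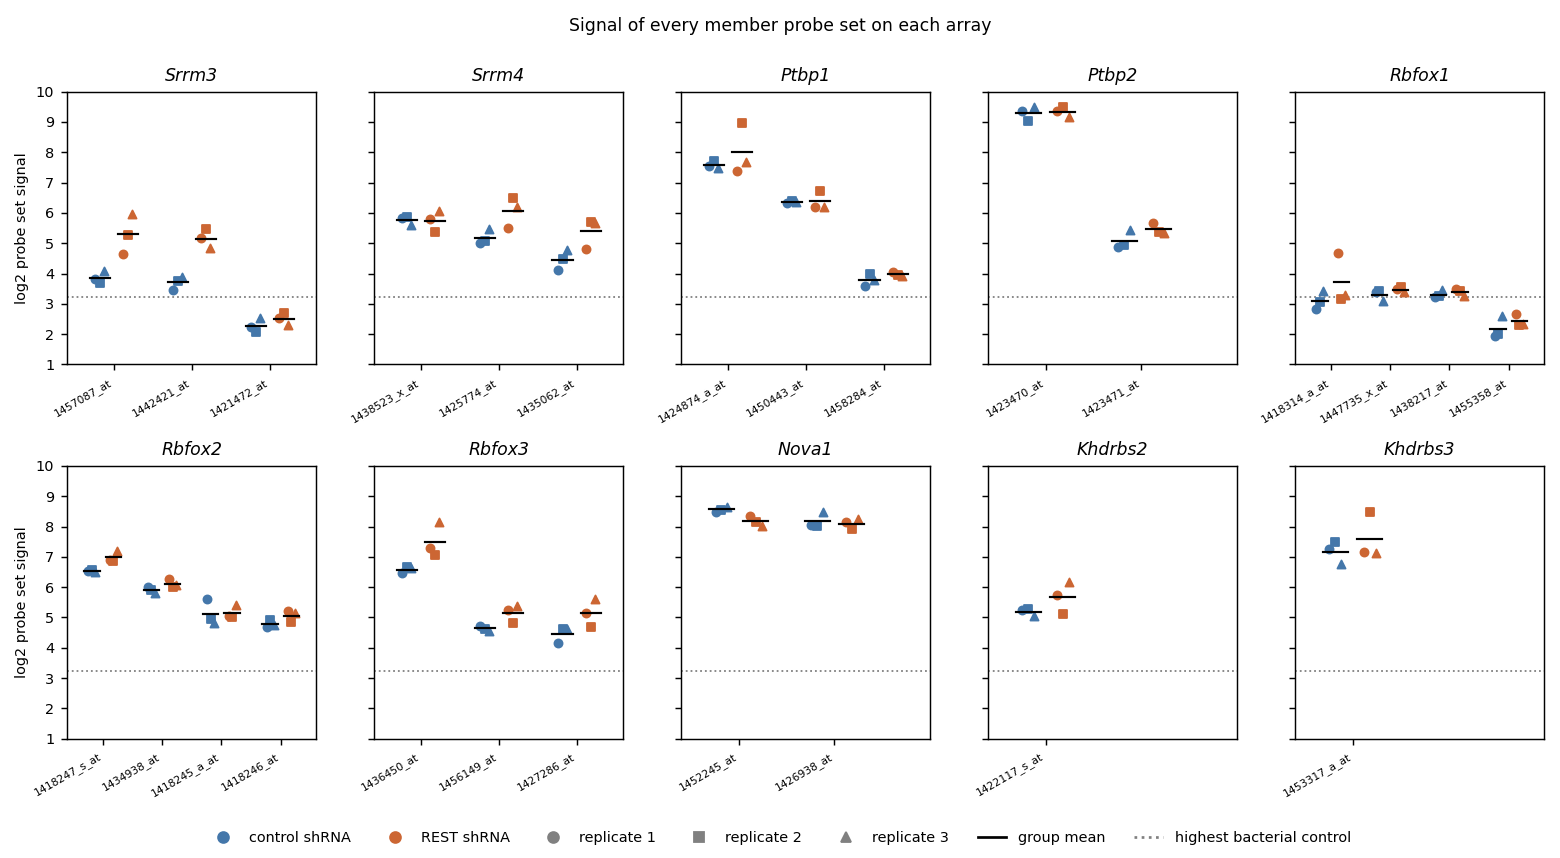
Log2 signal of each of the 26 probe sets on each array, 1 panel per gene, with control shRNA in blue, REST shRNA in orange, the replicate number as the symbol, the group mean as a bar and the highest bacterial control signal of 3.24 as a dotted line. The groups separate in 2 probe sets each of Srrm3 and Srrm4 and in all 3 of Rbfox3, while Ptbp1 and Khdrbs3 show a single high point in REST shRNA array 2.

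Srrm3, on chromosome 5 (135806860 to 135874773, GRCm38.p6), had the largest difference among the 10 genes. Its probe set 1442421_at read 3.46, 3.76 and 3.90 (log2) in control arrays 1, 2 and 3 and 5.16, 5.46 and 4.83 in REST shRNA arrays 1, 2 and 3. The groups did not overlap, and the lowest REST shRNA array lay well above the highest control array. This is a 2.72-fold higher signal (95% interval 1.91 to 3.88). A second probe set, 1457087_at, read 3.80, 3.69 and 4.08 in control and 4.64, 5.28 and 5.98 in REST shRNA, again without overlap and again 2.72-fold higher (1.57 to 4.71). The controls of both lay only a little over the bacterial reference of 3.24, where a signal can understate a difference. The third probe set, 1421472_at, stayed below that reference on all 6 arrays, from 2.07 to 2.70, with overlapping groups and a difference of 0.23 ± 0.19 (limma SE). The 2 readable probe sets had different orders among the REST shRNA arrays: 1457087_at was highest in array 3 and 1442421_at in array 2.

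Srrm4, also on chromosome 5 (116439268 to 116592562), read higher on 2 of its 3 probe sets. On 1425774_at the control arrays gave 4.99, 5.08 and 5.48 and the REST shRNA arrays 5.51, 6.50 and 6.20. The groups did not overlap, but REST shRNA array 1 exceeded control array 3 by a narrow margin. The difference was 0.89 (95% interval 0.21 to 1.56), a 1.85-fold higher signal. On 1435062_at the values were 4.11, 4.48 and 4.78 in control and 4.80, 5.72 and 5.68 in REST shRNA, 1.92-fold higher (1.17 to 3.16), with the same narrow margin. Without REST shRNA array 2 these differences were 0.67 (0.02 to 1.32) and 0.78, and the interval of the latter then reached 0 (0.00 to 1.57). Control array 3 was the highest control and REST shRNA array 1 the lowest of its group on both. The third and brightest probe set, 1438523_x_at, gave 5.82, 5.87 and 5.61 in control and 5.79, 5.36 and 6.05 in REST shRNA, a difference of -0.03 (-0.54 to 0.48). Its interval lies below the differences of the other 2 probe sets but overlaps their intervals, which start at 0.21 and 0.22. The probe sets of Srrm4 thus gave different estimates with overlapping intervals. The suffix _x_at marks a probe set whose probes can also match other transcripts. By replicate number its difference was -0.02, -0.51 and 0.44 for numbers 1, 2 and 3, while 1425774_at gave 0.52, 1.42 and 0.72 and 1435062_at gave 0.70, 1.23 and 0.90.

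Promoter sequences are shown for the 3 genes whose probe sets separated the groups most often, Srrm3, Srrm4 and Rbfox3, because REST acts on neuronal genes through the RE1 element. They are the 250 bases before a transcript start in RefSeq (build GRCm38.p6), each inside the annotated span of its gene, with CG pairs in capitals. The Srrm3 stretch lies at chr5:135817856-135818105 on the plus strand, the Srrm4 stretch at chr5:116591818-116592067 on the minus strand and the Rbfox3 stretch at chr11:118761042-118761291 on the minus strand. Read along these strands, the spans begin at 135806860 for Srrm3, 116592562 for Srrm4 and 118911597 for Rbfox3. The Srrm3 and Rbfox3 stretches thus lie far inside their genes and belong to starts other than the outermost one.
Srrm3: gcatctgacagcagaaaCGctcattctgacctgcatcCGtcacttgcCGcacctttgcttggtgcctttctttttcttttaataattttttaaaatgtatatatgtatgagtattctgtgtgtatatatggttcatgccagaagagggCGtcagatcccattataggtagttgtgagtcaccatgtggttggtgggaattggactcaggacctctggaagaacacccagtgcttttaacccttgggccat
Srrm4: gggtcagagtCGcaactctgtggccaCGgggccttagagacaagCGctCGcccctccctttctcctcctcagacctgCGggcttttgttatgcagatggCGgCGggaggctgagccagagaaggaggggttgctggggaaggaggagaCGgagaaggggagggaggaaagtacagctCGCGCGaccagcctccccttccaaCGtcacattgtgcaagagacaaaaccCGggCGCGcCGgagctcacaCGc
Rbfox3: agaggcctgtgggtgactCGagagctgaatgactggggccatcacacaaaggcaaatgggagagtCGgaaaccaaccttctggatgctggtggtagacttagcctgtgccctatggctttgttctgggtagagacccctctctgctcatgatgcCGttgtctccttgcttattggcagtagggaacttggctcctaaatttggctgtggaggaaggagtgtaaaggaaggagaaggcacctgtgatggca

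The Srrm4 stretch holds 17 CG pairs, the Srrm3 stretch 4 and the Rbfox3 stretch 3. Over windows of 300 bases, which add the first 50 transcribed bases, Srrm4 has 25, Srrm3 5 and Rbfox3 4, beside a median of 7 over the 32851 windows of the table. The left and right parts of the RE1 element were searched on both strands in those windows, TTCAGCACC for the left and GGACAG for the right, which do not overlap each other. The table held 9 windows for 8 of the 10 genes, with Rbfox1 having 2, and Rbfox2 and Khdrbs3 were not matched. The left part stood in 0 of the 9, where 0.371% of all windows have it. The right part stood in 1, that of Ptbp2, where 22.2% of all windows have it. These letters are therefore absent from the Srrm3, Srrm4 and Rbfox3 windows. Elements elsewhere in these genes, among them those at the outermost starts of Srrm3, Srrm4 and Rbfox3, were not analysed here.

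Among the 3 Rbfox genes, Rbfox3 on chromosome 11 (118489760 to 118911597) read higher on every probe set. The brightest, 1436450_at, gave 6.46, 6.66 and 6.62 in control arrays and 7.29, 7.05 and 8.15 in REST shRNA arrays, 1.89-fold higher (95% interval 1.17 to 3.06). The groups did not overlap, with REST shRNA array 3 the highest and array 2 the nearest to control. On 1456149_at the values were 4.73, 4.63 and 4.56 in control and 5.23, 4.83 and 5.39 in REST shRNA, 1.42-fold higher (1.04 to 1.95). On 1427286_at they were 4.17, 4.61 and 4.61 in control and 5.15, 4.68 and 5.61 in REST shRNA, 1.61-fold higher (1.03 to 2.50). All 3 probe sets ranked the REST shRNA arrays in the same order, array 3 above array 1 above array 2. The brightest Srrm4 probe set, 1438523_x_at, had this order too, whereas the other 2 probe sets of Srrm4 were lowest in REST shRNA array 1. Without REST shRNA array 2 the 3 differences of Rbfox3 were 1.14, 0.67 and 0.92. Without REST shRNA array 3 they were 0.59 ± 0.18 (limma SE), 0.39 ± 0.20 and 0.45 ± 0.24. On 1427286_at REST shRNA array 2 exceeded the highest controls by a narrow margin.

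Rbfox2, the broadly expressed member of the family on chromosome 15 (77078990 to 77308434), differed less. Its brightest probe set, 1418247_s_at, read 6.52, 6.55 and 6.49 in control and 6.90, 6.87 and 7.20 in REST shRNA. The controls lay close together and below all REST shRNA arrays, and the signal was 1.39-fold higher (95% interval 1.07 to 1.80). The other 3 probe sets had overlapping groups, with differences of 0.20 ± 0.16 (limma SE) for 1434938_at, 0.28 ± 0.17 for 1418246_at and 0.04 ± 0.25 for 1418245_a_at. The suffix _s_at marks probes shared by several transcripts and _a_at those shared by several transcripts of 1 gene.

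Rbfox1, an Rbfox protein of neurons and muscle, read near the bacterial reference. Its probe set 1418314_a_at gave 2.81, 3.06 and 3.41 in control and 4.68, 3.15 and 3.28 in REST shRNA, so a single array, REST shRNA array 1, stood out. The difference of 0.61 (95% interval -0.39 to 1.60) was 0.12 without that array. The other 3 probe sets lay between 1.95 and 3.54 on all arrays, with differences of 0.09 to 0.25 and overlapping groups.

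Ptbp1, on chromosome 10 (79854432 to 79864435), did not read clearly lower or higher with REST shRNA. Its brightest probe set, 1424874_a_at, gave 7.56, 7.70 and 7.49 in control and 7.38, 8.96 and 7.68 in REST shRNA, a difference of 0.42 (95% interval -0.51 to 1.36). REST shRNA array 2 alone lay apart, and without it the difference was -0.05 (-0.48 to 0.38). On 1450443_at the values were 6.31, 6.40 and 6.36 in control and 6.20, 6.73 and 6.20 in REST shRNA, a difference of 0.02 (-0.43 to 0.48). Here too array 2 was the highest. Arrays 1 and 3 lay just below all controls, at -0.15 (-0.52 to 0.21) without array 2. The dim probe set 1458284_at overlapped between groups, at 0.19 (-0.20 to 0.58).

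Ptbp2, on chromosome 3 (119718741 to 119784647), was close to level on its bright probe set. The bright probe set 1423470_at read 9.36, 9.02 and 9.49 in control and 9.36, 9.49 and 9.15 in REST shRNA, with groups that overlapped fully and a difference of 0.05 (95% interval -0.40 to 0.49). A change of 2-fold in either direction lies outside this interval, which rests on a spread between arrays that may be technical. The second probe set, 1423471_at, gave 4.87, 4.96 and 5.44 in control and 5.68, 5.38 and 5.35 in REST shRNA, a difference of 0.38 (-0.11 to 0.88). Its control array 3 overlapped the REST shRNA arrays while control arrays 1 and 2 lay below them.

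**Figure D2:**
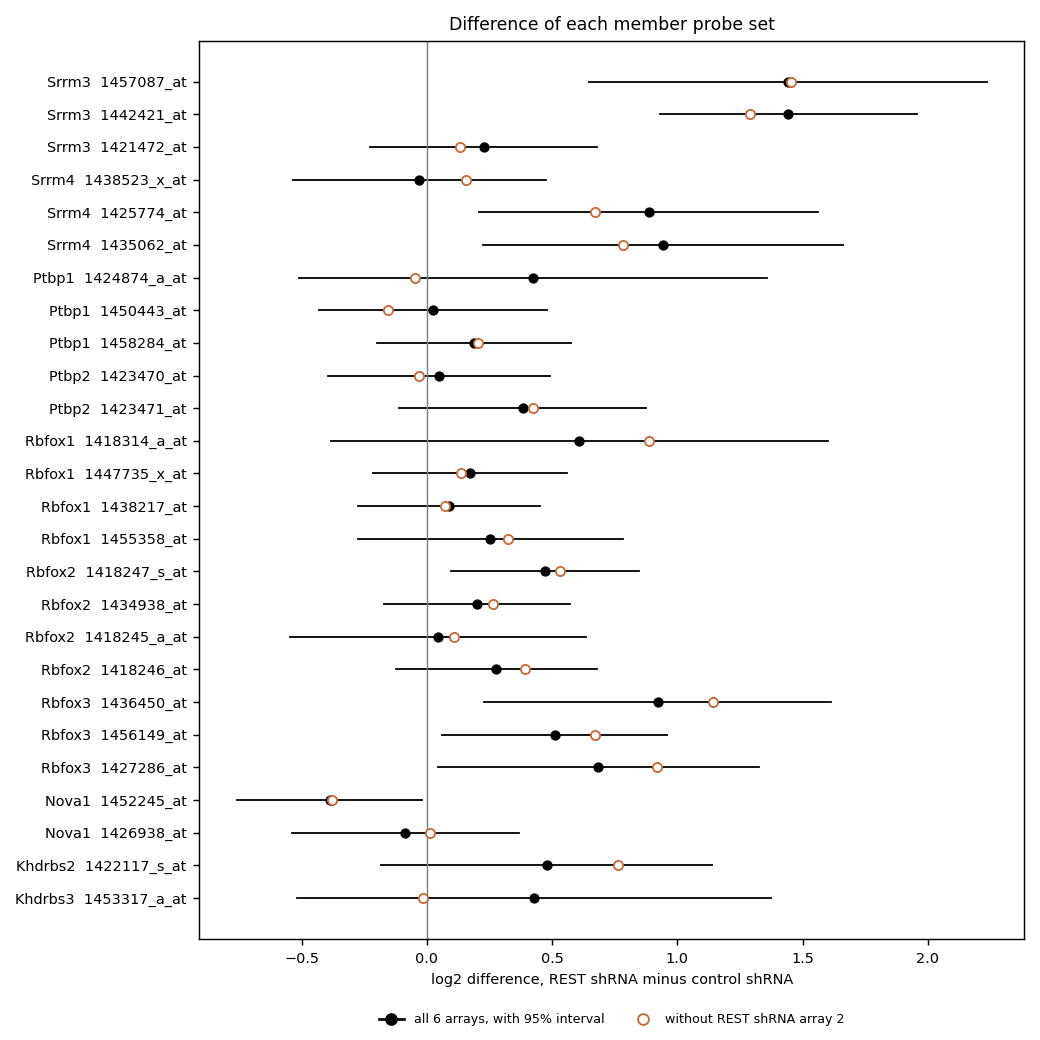
Log2 difference (REST shRNA minus control shRNA) of each of the 26 probe sets with its 95% limma interval in black, and the same difference without REST shRNA array 2 as an open circle. Srrm3 reaches 1.44 on 2 probe sets, Ptbp1 1424874_a_at goes from 0.42 to -0.05 and Khdrbs3 from 0.43 to -0.02 without that array, and Rbfox3 1436450_at goes from 0.92 to 1.14.

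Nova1, on chromosome 12 (46697895 to 46819480), was the only gene of the 10 with negative differences on all its probe sets. On 1452245_at the control arrays read 8.50, 8.55 and 8.65 and the REST shRNA arrays 8.35, 8.16 and 8.03. The groups did not overlap, and the signal with REST shRNA was 76.4% of control (difference -0.39, 95% interval -0.76 to -0.02). When replicate numbers were blocked, the interval was -0.85 to 0.08, and without REST shRNA array 2 it was -0.80 to 0.05. On 1426938_at the values were 8.06, 8.01 and 8.48 in control and 8.15, 7.90 and 8.24 in REST shRNA. These overlapped, at -0.09 (-0.54 to 0.37), and the difference was 0.01 without REST shRNA array 2.

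The 2 Khdrbs genes, each read by 1 probe set, were high on different arrays. Khdrbs2 gave 5.24, 5.29 and 5.04 in control and 5.73, 5.10 and 6.17 in REST shRNA, a difference of 0.48 (95% interval -0.18 to 1.14). Arrays 1 and 3 of the REST shRNA group lay above all controls and array 2 did not, and the difference was 0.76 (0.27 to 1.25) without array 2 and 0.22 without array 3. Khdrbs3 gave 7.25, 7.48 and 6.76 in control and 7.16, 8.48 and 7.13 in REST shRNA, a difference of 0.43 (-0.52 to 1.37). Only array 2 lay above the controls, and without it the difference was -0.02 (-0.60 to 0.57).

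By replicate number the 26 probe sets had median differences of 0.42, 0.24 and 0.34 for numbers 1, 2 and 3, with 20, 20 and 17 of them positive, beside medians of 0.00, 0.00 and 0.03 over all probe sets. Srrm4 1425774_at, Ptbp1 1424874_a_at and Khdrbs3 had their largest difference in number 2, at 1.42, 1.25 and 1.00. Rbfox3 1436450_at and Khdrbs2 had their smallest there, at 0.39 and -0.19, and their largest in number 3, at 1.53 and 1.14. The mean over the 20 neuron markers followed 0.81, 0.21 and 0.74 for numbers 1, 2 and 3, and the mean over the 15 astrocyte markers 0.09, -1.64 and 0.18. Their part in these patterns was not tested.

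**Figure D3:**
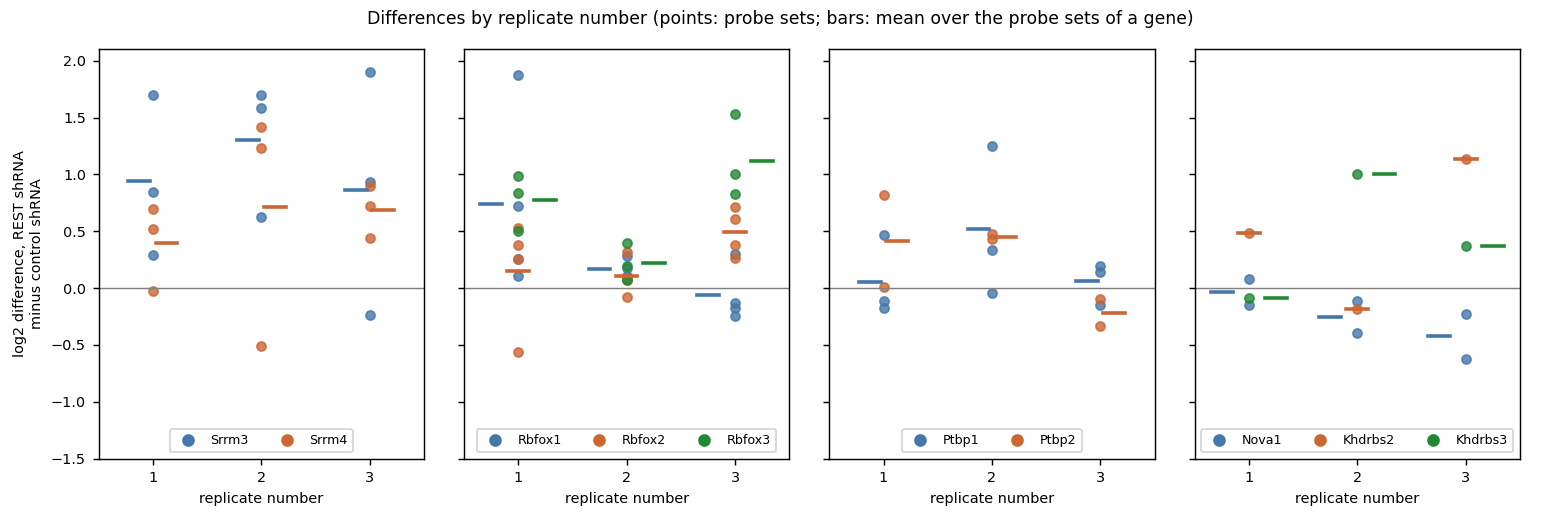
Log2 difference between the REST shRNA and the control shRNA array of the same replicate number, with a point per probe set and a bar for the mean over the probe sets of a gene. Rbfox3 is lowest in number 2, whereas Ptbp1 and Khdrbs3 have their highest points there, at 1.25 and 1.00.

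Patterns over the 6 arrays were compared with 13831 other genes above the bacterial reference, using the brightest probe set of each gene and Pearson's r as a description over points that share a group contrast. Srrm3 was most like Trank1 (r = 0.997) and Fam135b (0.987). Rbfox3 was most like Syp, which encodes the synaptic vesicle protein synaptophysin (0.997), and Gpr27 (0.997). Ptbp1 was most like Ranbp1, a partner of the Ran GTPase in nuclear transport (0.998), and Gna14 (0.996), and Khdrbs3 most like Sav1 (0.997) and Slbp, the histone mRNA stem loop binding protein (0.995). Nova1 was most like Chic1 (0.988) and Trp53inp1 (0.972). Rbfox2 was most like Slc35b2 (0.997) and Hoxb13 (0.995), and Khdrbs2 most like Cdk20 (0.993) and Mob2 (0.990). For Srrm4, whose brightest probe set is the _x_at one, the genes were Tnip1 (0.996) and A930005H10Rik (0.995), for Ptbp2 Wnt9b (0.986) and Ghrh (0.986), and for Rbfox1 Gm4793 (0.992) and Shisa2 (0.989). No weight is put on these values, since 6 points over this many genes readily give high correlations.

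Other splicing genes were taken from 6 lists, with the brightest probe set of each gene, and 123 of 135 listed genes were measured. No gene of these lists was called by limma at an adjusted p under 0.05 in either direction, where 0% of 18194 genes were, and at an unadjusted p under 0.05 there were 5 higher and 2 lower, against 1.69% and 1.04% of all genes. The median difference over all genes was 0.04, and 57.2% of them were positive. The paralogues that are not among the 10 genes, Nova2, Ptbp3, Khdrbs1, Srrm1 and Srrm2, had a median of -0.06 with 2 of 5 positive. Of these Ptbp3, a further repressor of the Ptbp family, differed by -0.26 ± 0.23 (limma SE) and Nova2, the second Nova protein, by 0.24 ± 0.21.

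In the list of other tissue-regulated splicing factors 10 of 24 were positive, with a median of -0.06. Celf5 read 6.42, 6.76 and 6.49 in control and 7.12, 7.07 and 7.29 in REST shRNA, without overlap, at 0.60 ± 0.16 (limma SE, adjusted p = 1.00). It and Celf3, Celf4 and Celf6, RNA-binding proteins of the same family, were the 4 genes of this list at an unadjusted p under 0.05 in the higher direction, with differences of 0.87 for Celf3, 0.98 for Celf4 and 0.82 for Celf6. The latter 3 are named after their values were seen. The other Celf genes of the list, Celf1 and Celf2, differed by 0.15 and -0.30 and did not pass that threshold. In the lower direction stood Rbm20, a regulator of titin splicing in muscle, at 6.76, 6.75 and 6.10 in control and 5.73, 5.20 and 5.74 in REST shRNA, a difference of -0.98 ± 0.25 (adjusted p = 1.00) without overlap.

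The 3 lists of the general splicing machinery had their highest mean difference in replicate number 2. So had the list of paralogues described above, at -0.20, 0.18 and -0.08 for numbers 1, 2 and 3. SR proteins, which promote exon inclusion, had a median of -0.05 over 13 genes, which was -0.21 without REST shRNA array 2, with Srsf12 at 0.45 ± 0.50 (limma SE) and Tra2a at -0.17 ± 0.19. Their mean difference was -0.22, 0.42 and -0.24 for replicate numbers 1, 2 and 3. The hnRNPs and partners of Ptbp1 had a median of 0.02 over 27 genes, which turned to -0.13 without REST shRNA array 2, with Hnrnph2 at -0.31 ± 0.18 and Hnrnph1 at -0.25 ± 0.21, and a mean of -0.15, 0.28 and -0.11 by replicate number. The Ptbp1 probe sets gave -0.18, 1.25 and 0.20 for 1424874_a_at, -0.12, 0.34 and -0.15 for 1450443_at and 0.46, -0.04 and 0.14 for 1458284_at. Core spliceosome genes were positive in 26 of 28 cases with a median of 0.21, which was 0.05 without REST shRNA array 2. Their mean difference was -0.01, 0.38 and 0.17 by replicate number. Sf3a2, a subunit of the U2 particle, differed by 0.44 ± 0.25, and Cdc5l by 0.24 ± 0.16.

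Genes whose exons are known to be under these regulators, such as Src, Dlg4 and the neurexins, were read for their total transcript only. Of 26 measured, 14 were positive with a median of 0.01. Cacna1b, a calcium channel subunit with exons under Nova and Rbfox control, gave 5.99, 6.10 and 5.75 in control and 7.11, 7.50 and 7.03 in REST shRNA, without overlap, at 1.27 ± 0.19 (limma SE, adjusted p = 0.923). Fn1, which encodes fibronectin and has an exon under Rbfox control, gave 7.45, 8.71 and 7.56 in control and 6.83, 6.28 and 7.45 in REST shRNA, at -1.05 ± 0.42 (adjusted p = 1.00). Its REST shRNA array 3 lay just below the controls. By replicate number the difference was -0.62, -2.43 and -0.11, and without REST shRNA array 2 it was -0.76 (95% interval -1.79 to 0.26).

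**Figure D4:**
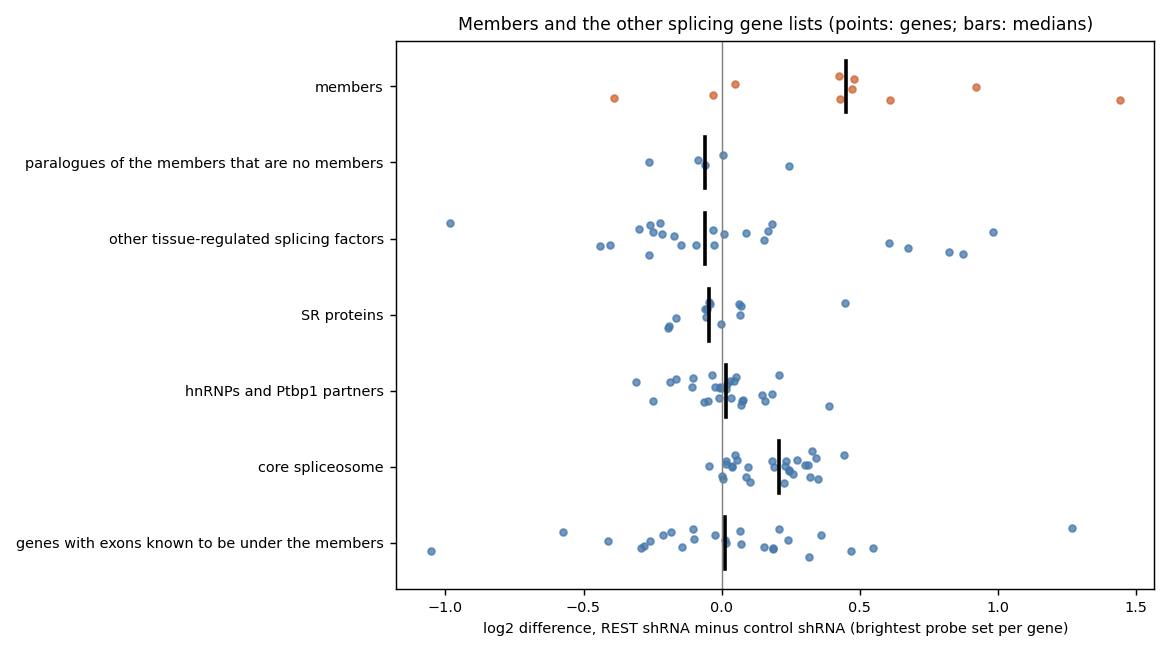
Log2 difference (REST shRNA minus control shRNA) of each gene, by its brightest probe set, for the 10 genes in orange and the 6 other splicing lists in blue, with the median of each list as a bar. The medians are 0.45 for the 10 genes, 0.21 for the core spliceosome and between -0.06 and 0.02 for the other lists.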

How the data were processed

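RNA of 6 samples was hybridised to 1-colour Affymetrix arrays. The authors deposited 1 log2 signal per probe set, a unit read from the range of 1.00 to 14.2. How background, probes and arrays were combined is not given in the sources used here.

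Titles gave groups and replicate numbers. The platform annotation gives 34958 probe sets 1 gene and 932 several, and does not list 9211.

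limma 3.58.1 under R 4.3.3 fitted group alone (lmFit, eBayes; Benjamini-Hochberg over 45101 probe sets; call at an adjusted p under 0.05), without a filter on dim probe sets, after being tested on simulated data. Intervals are limma's at 95%. The background reference is the highest of 27 bacterial control probe sets.

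The members and lists were chosen with earlier results of these data known. The genes named are Rest, the members, from each splicing list the 2 with the smallest p, and the 2 most correlated with each member. Outside this rule, Celf1, Celf2, Celf3, Celf4 and Celf6 were added after their values were seen, and some list and marker genes are named as examples or for lying below background.

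Same-numbered arrays deviated together from their group means (r = 0.117, 0.282 and 0.402, each over 0.1). The title numbers were therefore used as pairs in the replicate block. For number 1 the pairing is not shown, since control array 1 deviated more closely with REST shRNA array 2 (r = 0.231). Intervals come from the fit of group alone unless blocking is named.

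Alternatives were the replicate block, quantile normalization, median centring, a variance trend, a robust prior, array weights, a filter on dim probe sets, 1 probe set per gene, no shared probe sets, and each array left out.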

Additional observations from a re-analysis of the deposited data

How the results depend on the processing

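No probe set was called by limma at an adjusted p under 0.05 in either direction under any of the 15 alternatives, including the replicate block, and no gene of the other splicing lists was; the replicate block changed no call. With limma at an unadjusted p under 0.05 the counts were 692 higher and 869 lower, 844 and 1089 with the replicate block, 1434 and 1345 when REST shRNA array 2 was left out, and 325 and 514 when control array 1 was. The Rest probe sets kept their negative sign in every alternative that held them. Since their groups do not overlap, only quantile normalization and median centring could have turned that sign. The median difference of the 26 member probe sets was 0.33, from 0.21 to 0.37 with each array left out in turn, the lowest without REST shRNA array 1. It was 0.45 over the 10 genes with 1 probe set per gene. Leaving out 1 array, which by construction can only keep or add separated probe sets, gave 8 to 13 member probe sets higher without overlap and 1 to 2 lower. The share of all probe sets that separate was not taken for these settings, so these counts have no background beside them. The count of 13 came without control array 3. The count of 2 came without REST shRNA array 2, where Ptbp1 1450443_at joined Nova1. Both Srrm3 probe sets above background, 2 Srrm4 probe sets and all 3 of Rbfox3 were positive in all 12 alternatives that give a difference. Their groups do not overlap, so leaving out or weighting arrays could not turn these signs. The replicate block, variance trend and robust prior do not change the difference, so only quantile normalization and median centring could have turned these signs. The sign turned in at least 1 of the 12 alternatives for Khdrbs3, Ptbp1 1424874_a_at and 1450443_at, Ptbp2 1423470_at, Rbfox2 1418245_a_at, Srrm4 1438523_x_at and Nova1 1426938_at. Every other member probe set kept its sign in all 12. Among these were all those of Rbfox1, where 1418314_a_at stood out on a single array. The background reference limits Srrm3 and Rbfox1, whose control signals lie near it.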
